A study of Mus musculus with 20 samples.

Results

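The 10 genes described here encode proteins that join, divide or remove mitochondria: Mfn1, Mfn2 and Opa1 for fusion, Dnm1l, Fis1 and Mff for fission, and Pink1, Bnip3, Bnip3l and Fundc1 for mitophagy. They were chosen by name, as members of these pathways, with earlier results of these data known. They were matched to the count table by Ensembl gene identifier. All 10 were found among the 55416 genes listed, and all 10 were among the 14471 genes with enough counts to be tested. The samples were quadriceps muscles of wild-type male C57BL/6J mice aged 26 to 28 months. Each mouse received a single intramuscular injection of 50 µL, either of 0.9% saline (control, n = 10 muscles) or of secretome (n = 10 muscles). The methods state that the mice had been fasted for 4 h and that the injected muscle was taken 3 h later. The secretome is a cell-free, filtered and concentrated medium collected from partially differentiated human embryonic stem cells, so that a human product was tested in mice and at 1 time only. Myofibre genes were abundant in every muscle, with 9 myofibre markers together at 65825 to 107985 CPM (counts scaled to a common library size) in the control muscles and 83587 to 124962 CPM in the secretome muscles.

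Mitochondria form a network that is continually joined and divided. Mfn1 and Mfn2 are GTPases that tether and fuse outer membranes, and Opa1 fuses inner membranes and shapes the cristae. Dnm1l encodes Drp1, the GTPase that constricts the organelle once adaptors such as Mff have recruited it, and Fis1 is a small outer membrane protein linked to fission and to mitophagy. Mitophagy delivers damaged mitochondria to the lysosome, either after the kinase Pink1 has marked them for ubiquitination or through receptors in the outer membrane, among them Bnip3, Bnip3l and Fundc1, which bind the autophagosome directly. In muscle, Bnip3 is known as a gene induced by hypoxia and by FoxO factors.

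RefSeq promoter sequences of the mouse build GRCm38.p6, each running from 250 bases before to 50 bases after a start site, were found for 9 of the 10 genes, with 14 start sites in all. They were searched on both strands for the hypoxia response elements ACGTG and GCGTG, the E-box CACGTG, which itself contains ACGTG on each strand, and the FoxO site TGTTTAC. Of all 32851 mouse promoters in the table, 19.62% held ACGTG, 32.39% GCGTG, 7.15% CACGTG and 3.65% TGTTTAC, and 43.77% held at least one of the hypoxia response elements. The promoters below are those of Bnip3, which held the most matches in a single window, and of the 3 fusion genes, which varied together across the muscles. They lie at chr7:138909457-138909756 (minus strand, Bnip3), chr3:32529232-32529531 (plus strand, Mfn1), chr4:147904860-147905159 (minus strand, start site 1 of 3, Mfn2) and chr16:29579084-29579383 (plus strand, Opa1). They are printed 5′ to 3′ with matches in capitals.
Bnip3: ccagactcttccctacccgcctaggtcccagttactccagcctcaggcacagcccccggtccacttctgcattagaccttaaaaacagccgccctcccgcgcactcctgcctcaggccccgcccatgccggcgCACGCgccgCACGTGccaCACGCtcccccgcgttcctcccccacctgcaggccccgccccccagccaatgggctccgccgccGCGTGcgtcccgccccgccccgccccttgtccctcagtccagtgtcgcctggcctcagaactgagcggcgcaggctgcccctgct
Mfn1: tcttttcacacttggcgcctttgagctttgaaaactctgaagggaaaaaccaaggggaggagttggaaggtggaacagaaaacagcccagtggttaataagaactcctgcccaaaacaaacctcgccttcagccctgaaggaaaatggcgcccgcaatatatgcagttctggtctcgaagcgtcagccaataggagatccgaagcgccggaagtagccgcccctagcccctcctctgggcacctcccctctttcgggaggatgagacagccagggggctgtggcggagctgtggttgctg
Mfn2: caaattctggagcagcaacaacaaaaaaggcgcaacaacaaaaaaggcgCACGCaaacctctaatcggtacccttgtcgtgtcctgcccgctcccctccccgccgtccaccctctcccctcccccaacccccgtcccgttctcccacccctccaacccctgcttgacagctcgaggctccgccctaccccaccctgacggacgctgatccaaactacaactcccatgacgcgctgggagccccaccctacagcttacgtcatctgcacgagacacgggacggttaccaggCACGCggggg
Opa1: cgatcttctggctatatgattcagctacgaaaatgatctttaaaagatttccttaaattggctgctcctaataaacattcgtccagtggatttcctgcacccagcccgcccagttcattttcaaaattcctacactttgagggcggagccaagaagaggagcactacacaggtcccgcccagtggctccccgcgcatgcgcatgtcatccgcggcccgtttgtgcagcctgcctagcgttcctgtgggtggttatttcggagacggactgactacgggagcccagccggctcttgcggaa
In Bnip3 the E-box lay at bases -108 to -103 from the start and was counted as 2 matches of ACGTG, 1 on each strand, and 3 matches of GCGTG lay around it and nearer to the start. Mfn1, Opa1, Mff and Fundc1 held none of the searched letters in these windows. Mfn2, Dnm1l, Fis1 and Pink1 each held GCGTG in at least 1 window, Mfn2 also held ACGTG in the windows of start sites 2 and 3, and none of the 14 windows held TGTTTAC. A match is only a description of these letters and not evidence that a factor binds there.

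The genes differed widely in level. Per kilobase of annotated exon, in control muscles, Pink1 stood highest at 207 ± 46.9 CPM per kb (SD, n = 10), and it was above Mfn2, the next gene, in all 20 muscles. Mfn2 followed at 83.7 ± 16.99, Bnip3 at 70.6 ± 11.3 and Fis1 at 38.5 ± 18.1 CPM per kb. Mfn2 and Bnip3 were neighbours within their spread, with Mfn2 the higher in 15 of 20 muscles and in 6 of 10 control muscles. The lower part of the order was Mfn1 at 19.7 ± 3.56, Bnip3l at 15.6 ± 1.93, Opa1 at 13.4 ± 2.22, Dnm1l at 11.7 ± 3.41, Mff at 8.35 ± 1.344 and Fundc1 at 8.04 ± 1.57 CPM per kb. Bnip3l and Opa1 were close, with Bnip3l the higher in 9 of 20 muscles, and so were Mff and Fundc1, with Mff the higher in 13 of 20. The place of Mff depended on which exons were counted, since it rose from rank 9 to rank 6 when its longest transcript (3918 bases) replaced all annotated exons (9757 bases). Between the paired genes, Mfn2 exceeded Mfn1 by a ratio of 4.29 ± 0.665 per kb in control and 4.04 ± 0.305 in secretome muscles. Bnip3 exceeded Bnip3l by a ratio of 4.57 ± 0.718 in control and 5.18 ± 0.623 in secretome muscles.

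**Figure D1:**
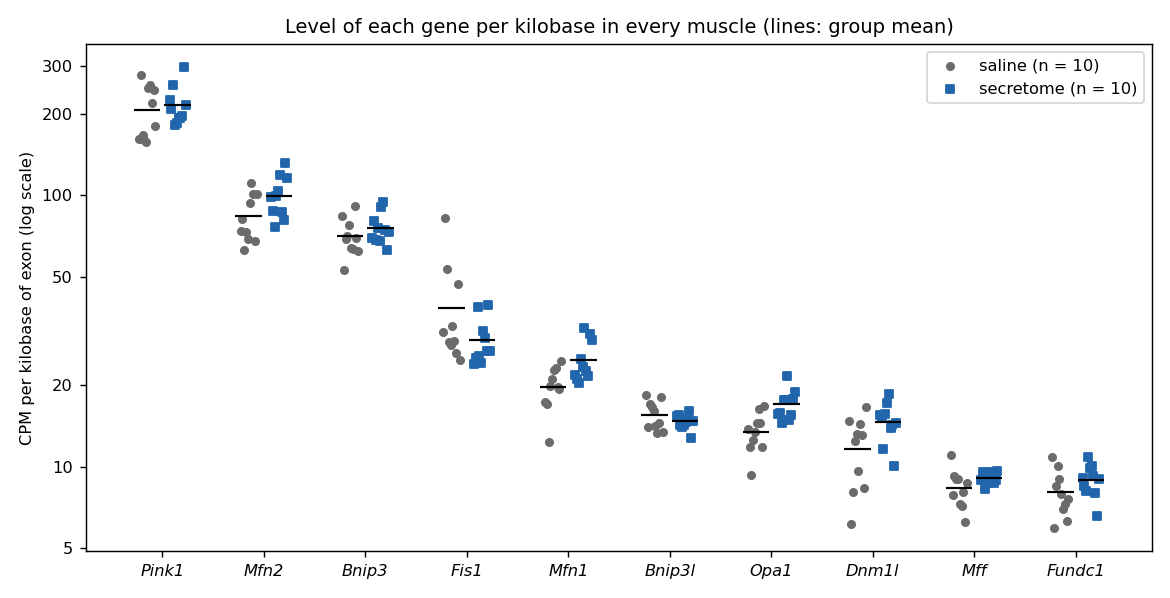
Level of each of the 10 genes in CPM per kilobase of exon (log scale) in every muscle, with control muscles in grey, secretome muscles in blue and a line at each group mean. Pink1 lies above all other genes, and Mff and Fundc1, at 8.35 and 8.04 CPM per kb in control muscles, overlap at the bottom.

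The libraries held 13286983 to 22987237 counts on genes, and the genes described here had from 225 reads (Fundc1, lowest) to 14745 reads (Pink1, highest). The library numbers differed in another way that bears on every result below: the share of counts on Ttn, the gene of the giant myofibre protein titin, was 7.02% to 11.03% in libraries 1 to 5 (saline), 16.4% to 21.1% in libraries 6 to 15 (5 of each treatment) and 14.2% to 14.7% in libraries 16 to 20 (secretome). Libraries 1 to 5 hold only saline and 16 to 20 only secretome, so treatment and library number cannot be told apart among them, and the differences of the 10 genes and of each list are also given within libraries 6 to 15. The labels do not say what the library numbers stand for.

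Across all 20 muscles the fusion genes were higher after secretome by 1.195-fold to 1.26-fold, Dnm1l was higher by 1.26-fold and Fis1 was lower, while the mitophagy genes and Mff lay closer to the control level. None of the 10 genes passed a 5% false discovery rate in edgeR, at which 0.00691% of all genes (1 of 14471) were called, and none passed with DESeq2. At an unadjusted p under 0.05 there were 5 of the 10, against 15.7% of all genes. Of these, 4 were higher (Opa1, Mfn1, Dnm1l and Mfn2), against 6.52% of all genes, and 1 was lower (Fis1), against 9.21%. The median log2 fold change of the 10 genes was 0.13, compared with -0.03 over all genes tested, and 8 of the 10 values were positive. Within libraries 6 to 15, 0 of the 10 genes passed the false discovery rate in edgeR or DESeq2, which called 0% and 0.239% of all genes, and 2 had an unadjusted p under 0.05 (Mff and Fundc1), against 9.95%. Their median log2 fold change there was 0.05.

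**Figure D2:**
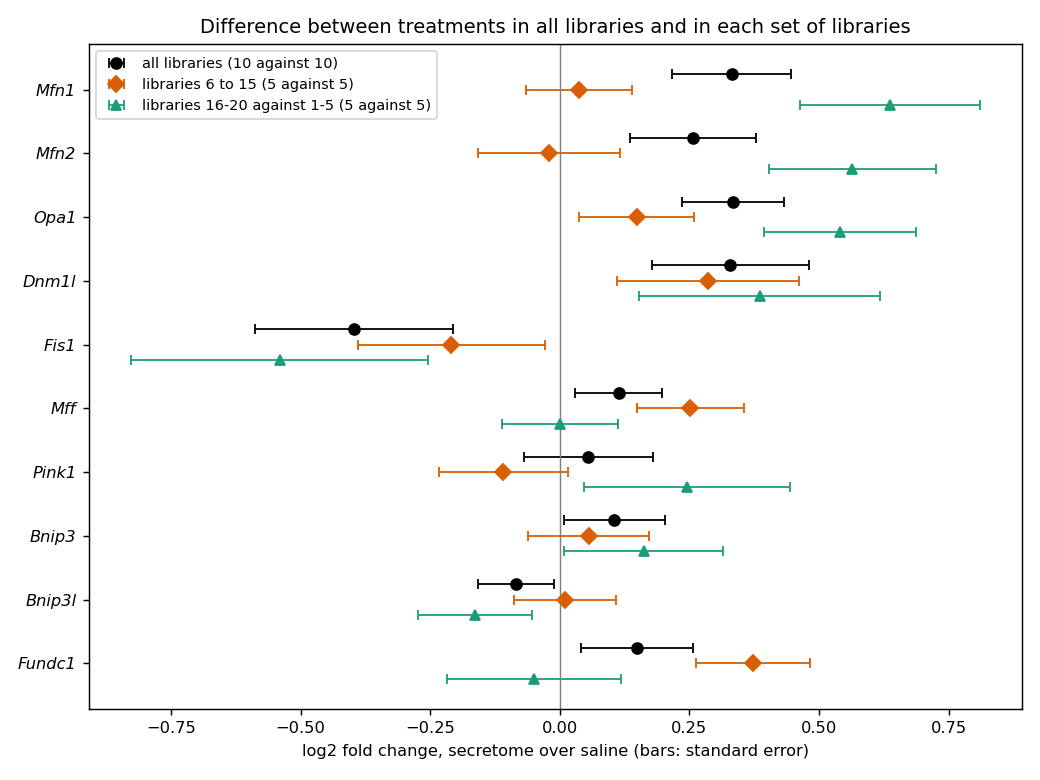
Log2 fold change of each gene, secretome over saline, with its standard error, over all 20 muscles (black circles), within libraries 6 to 15 (orange diamonds) and for libraries 16 to 20 against 1 to 5 (green triangles). Mfn1, Mfn2 and Opa1 are near 0.04, -0.02 and 0.15 within libraries 6 to 15 and at 0.64, 0.56 and 0.54 in the remaining libraries.

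Mfn1, the outer membrane fusion GTPase of lower level here, ranged from 75.3 through a median of 120.4 to 150.0 CPM in control muscles and from 125 through 139.7 to 198 CPM in secretome muscles. All 10 secretome muscles were above the control median, although the groups overlapped, and the low end was set by control 3 and the high end by secretome 6, 9 and 10. The log2 fold change was 0.33 ± 0.12 (SE), with an adjusted p of 0.196 in edgeR. It was 0.04 within libraries 6 to 15, with a 95% interval of -0.16 to 0.24 and an exact permutation p of 0.738. In libraries 16 to 20 against 1 to 5 it was 0.64 (edgeR adjusted p = 0.140), and the groups did not overlap.

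Mfn2, which also tethers mitochondria to the endoplasmic reticulum, ranged from 326 through 405 to 578 CPM in control muscles and from 397 through 513 to 686 CPM in secretome muscles. Secretome 9, 6 and 10 were highest and control 3, 9 and 5 lowest, and 9 secretome muscles were above the control median. The log2 fold change was 0.26 ± 0.12 (SE; edgeR adjusted p = 0.304). The sign was negative within libraries 6 to 15, at -0.02 (95% interval -0.29 to 0.25, exact permutation p = 0.881), and control muscles 6, 7, 8 and 10 lay at 488, 578, 526 and 525 CPM, level with the secretome muscles of that set. In libraries 16 to 20 against 1 to 5 the log2 fold change was 0.56 (edgeR adjusted p = 0.1503).

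Opa1, the inner membrane fusion GTPase, had the smallest p of the 10 genes. It ranged from 73.2 through 106.8 to 132 CPM in control muscles and from 114 through 131 to 169.5 CPM in secretome muscles. All 10 secretome muscles were above the control median, but the groups overlapped, since control 7 and 10 reached 128 and 132 CPM. The log2 fold change was 0.33 ± 0.10 (SE), with an edgeR adjusted p of 0.153 and a DESeq2 adjusted p of 0.0569, where 1.25% of the 17310 genes given an adjusted p by DESeq2 were called. It was 0.15 within libraries 6 to 15 (95% interval -0.07 to 0.37, exact permutation p = 0.183) and 0.08 there without control 9, and in the remaining libraries it was 0.54 (edgeR adjusted p = 0.139), where the groups did not overlap.

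The treatment difference of the fusion genes was therefore compared between the library sets by an interaction term. Libraries 6 to 15 minus the remaining ones gave a difference in log2 fold change of -0.61 ± 0.20 for Mfn1, -0.60 ± 0.21 for Mfn2 and -0.41 ± 0.18 for Opa1, with edgeR adjusted p-values of 0.219, 0.262 and 0.386. These were the 3 genes of the 10 with an unadjusted p under 0.05 for that term, against 11.1% of all genes, and none passed the false discovery rate, which 0.0553% of all genes did. In libraries 16 to 20 against 1 to 5 the same 3 genes had an unadjusted p under 0.05, against 16.1% of all genes, and neither they nor any other gene (0%) passed the false discovery rate in edgeR. Mfn1 and Opa1 did not overlap between those groups, which 4.85% of all genes did not. With DESeq2 all 3 passed there, with adjusted p-values of 0.0201, 0.0202 and 0.0201, where DESeq2 called 3.77% of all genes (520 of 13788). With the GC and length trends of each library removed, the log2 fold changes of Mfn1, Mfn2 and Opa1 were 0.63, 0.63 and 0.51 in these libraries and -0.00082, 0.10 and 0.05 within libraries 6 to 15. Myosin heavy chain Myh4, the most abundant of the myofibre markers, had a log2 fold change of 0.05 within libraries 6 to 15 and 0.76 in the remaining ones. Of the 9 myofibre markers, 2 were positive within libraries 6 to 15 (median -0.09) and 8 in the remaining ones (median 0.40). The part of these markers in the fusion genes' difference was not tested. In bulk muscle, fewer cells of a type and less RNA per cell cannot be told apart.

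**Figure D3:**
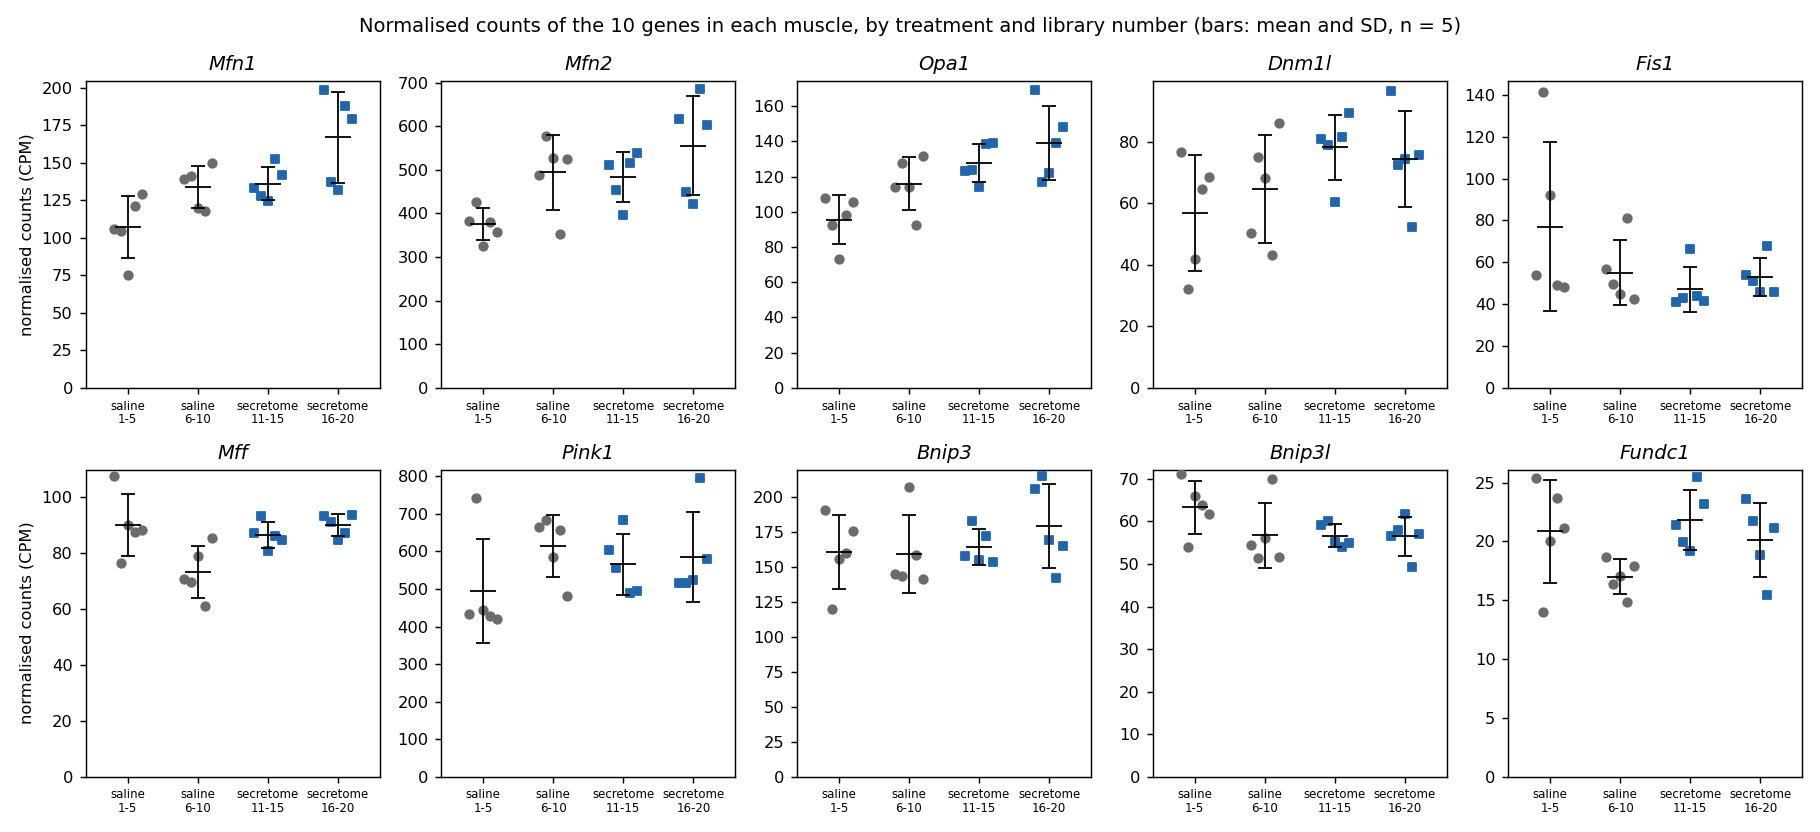
Normalised counts (CPM, axes from 0) of each gene in every muscle, split into saline libraries 1 to 5 and 6 to 10 (grey circles) and secretome libraries 11 to 15 and 16 to 20 (blue squares), with the mean and SD of each set of 5. For Mfn1 the 4 sets had means of 107, 134, 136 and 167 CPM, while for Fundc1 the saline set 6 to 10 was lowest, at 17 CPM.

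Dnm1l, the fission GTPase, ranged from 32.0 through 66.4 to 86.1 CPM in control muscles and from 52.3 through 77.2 to 96.4 CPM in secretome muscles. Control 2, 3 and 9 were lowest, at 32.0, 41.9 and 43.2 CPM, and secretome 9 was the lowest of its group. Its log2 fold change of 0.33 ± 0.15 (SE; edgeR adjusted p = 0.294) split into 0.29 within libraries 6 to 15 (exact permutation p = 0.206) and 0.39 in the remaining ones. The difference between the sets was -0.11 ± 0.31 (SE; edgeR adjusted p = 0.930). The value within libraries 6 to 15 was 0.17 without control 9 and 0.13 with the GC and length trends removed.

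Fis1 ran opposite to Dnm1l. It ranged from 42.4 through 51.8 to 141 CPM in control muscles and from 41.1 through 45.8 to 67.9 CPM in secretome muscles. The high controls were again 2, 3 and 9, at 141, 92.1 and 81.0 CPM, and the high secretome muscles were 9 and 3, at 67.9 and 66.4 CPM. Its log2 fold change was -0.40 ± 0.19 (SE; edgeR adjusted p = 0.315), and without control 2 it was -0.20 (edgeR adjusted p = 0.583). It was -0.21 within libraries 6 to 15 (exact permutation p = 0.341), and without control 9 it was -0.03. Fis1 has a short annotated exon length (1714 bases) and a GC content of 54.4%, compared with a median of 49.2% over the genes tested, and with the trends of each library on GC content and length removed the difference over all muscles was -0.20.

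Mff, the adaptor that recruits Drp1, ranged from 61.1 through 82.0 to 107 CPM in control muscles and from 80.7 through 87.2 to 93.7 CPM in secretome muscles. The secretome muscles lay in a narrower band (coefficient of variation 5.03%, compared with 16.1% in the control muscles), and 9 of them were above the control median. The log2 fold change was 0.11 ± 0.08 (SE; edgeR adjusted p = 0.510) over all muscles. Within libraries 6 to 15 it was 0.25 (edgeR adjusted p = 0.470, exact permutation p = 0.0238), and saline libraries 6 to 10 averaged 73.1 ± 9.26 CPM, compared with 89.9 ± 11.1 in saline libraries 1 to 5. The GC content of Mff is low (37.3%), and with the GC and length trends removed its difference within libraries 6 to 15 was -0.0042.

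Pink1, the kinase that marks depolarised mitochondria, ranged from 420.0 through 533 to 742 CPM in control muscles and from 488 through 540.1 to 796 CPM in secretome muscles. Control 2 and secretome 9 were highest, and the other 4 saline libraries of 1 to 5 lay between 420.0 and 445 CPM. Its log2 fold change was 0.06 ± 0.12 (SE; 95% interval -0.19 to 0.30, edgeR adjusted p = 0.853), with 5 of 10 secretome muscles above the control median. It was -0.11 within libraries 6 to 15 (exact permutation p = 0.405) and 0.25 in the remaining ones. Pink1 has the highest GC content of the 10 genes (59.0%), and with the GC and length trends removed its difference was 0.23 over all muscles (unadjusted p = 0.0252, edgeR adjusted p = 0.265), 0.06 within libraries 6 to 15 and 0.43 in the remaining ones (unadjusted p = 0.00598, edgeR adjusted p = 0.120).

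Bnip3, the hypoxia-inducible receptor whose promoter is printed first, ranged from 120.0 through 157 to 207.5 CPM in control muscles and from 142 through 167.5 to 215 CPM in secretome muscles. The extremes were control 2 (lowest) and secretome 7 (highest), and the groups overlapped widely. Secretome and control differed by a log2 fold change of 0.10 ± 0.10 (SE; 95% interval -0.09 to 0.30, edgeR adjusted p = 0.612), and within libraries 6 to 15 by 0.06 (exact permutation p = 0.659).

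Bnip3l, the related receptor also called Nix, varied least over the 20 muscles (coefficient of variation 10.2%), from 51.4 through 58.9 to 71.1 CPM in control muscles and from 49.2 through 56.8 to 61.8 CPM in secretome muscles. Only 3 secretome muscles were above the control median. Its log2 fold change was -0.08 ± 0.07 (SE; 95% interval -0.23 to 0.06, edgeR adjusted p = 0.587) and 0.01 within libraries 6 to 15 (exact permutation p = 0.984).

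Fundc1, a receptor linked to hypoxia and the member with the fewest reads, ranged from 13.98 through 18.3 to 25.4 CPM in control muscles and from 15.4 through 21.3 to 25.5 CPM in secretome muscles. The lowest muscle of each group was the one with the highest Pink1, control 2 and secretome 9. Over all muscles the log2 fold change was 0.15 ± 0.11 (SE; edgeR adjusted p = 0.502). The groups did not overlap within libraries 6 to 15, with control muscles at 14.9, 16.4, 17.1, 17.9 and 18.7 CPM and secretome muscles at 19.2, 19.99, 21.4, 23.2 and 25.5 CPM. Of all genes, 1.91% did not overlap in that comparison. The log2 fold change there was 0.37 ± 0.11 (SE; edgeR adjusted p = 0.416), and the exact permutation p was 0.00794, the smallest that 5 against 5 muscles allow. In the remaining libraries it was -0.05. Fundc1 is a low-GC gene (38.8%), and with the GC and length trends removed its difference within libraries 6 to 15 was 0.14.

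The genes also varied together from muscle to muscle, with both treatments and all library sets pooled. Shifts shared between the library sets or treatments therefore enter each pooled r and its permutation p. Correlations were computed on log2 CPM for all 45 pairs of the 10 genes over 20 muscles, and 18 had a Benjamini-Hochberg adjusted permutation p under 0.05, 9 of them positive and 9 negative. The sign was the same in both library sets for 17 of the 18 and in both treatments for 18, although some were near 0 in 1 treatment, such as Mfn1 and Dnm1l, with an r of 0.57 in control and 0.04 in secretome muscles. With the GC and length trends of each library removed, 15 pairs passed and 7 of these were among the 18. Those 7 included the 3 pairs among Mfn1, Mfn2 and Opa1 and the pair of Dnm1l and Fis1. Pink1 passed only then with Mfn1, Mfn2 and Opa1 (r of 0.70, 0.71 and 0.76, beside 0.24, 0.41 and 0.13 as measured). Within libraries 6 to 15 these were -0.12, 0.24 and 0.17 with the trends removed. Fis1 and Mff also passed only then, and their sign turned (0.78, beside -0.33 as measured). The other new pairs were Mfn2 with Dnm1l, and Bnip3l with Dnm1l, Fis1 and Mff.

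Mfn1 and Opa1 were the closest pair, with a Pearson r of 0.93 and a Spearman rho of 0.91 (adjusted permutation p of 0.000113 and 0.000225, n = 20). Without the 2 muscles farthest from the median of Mfn1 the r was 0.84, and it was 0.82 within libraries 6 to 15 and 0.96 in the remaining ones. Mfn1 and Mfn2 had an r of 0.83 and a rho of 0.82 (adjusted permutation p of 0.000113 and 0.0006), with 0.79 without the 2 farthest muscles, 0.67 within libraries 6 to 15 and 0.90 in the remaining ones. Mfn1 and Opa1 had an r of 0.90 in control and 0.89 in secretome muscles, and Mfn1 and Mfn2 of 0.69 and 0.91. With the trends removed these 2 pairs had an r of 0.94 and 0.83. Control 3 was low and secretome 6 was high for all 3 fusion genes.

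Dnm1l and Fis1, both fission genes, varied in opposite directions, with an r of -0.90 and a rho of -0.76 (adjusted permutation p of 0.000113 and 0.0018, n = 20). Without the 2 muscles farthest from the median of Dnm1l the r was -0.79, and it was -0.91 within libraries 6 to 15, -0.91 in the remaining ones, -0.94 in control muscles and -0.73 in secretome muscles. Dnm1l has long, AT-rich exons (5203 bases, 40.9% GC), unlike Fis1, and with the trends removed the r was -0.72. Control 2, 3 and 9 and secretome 3 and 9 held the 5 highest Fis1 values, and 4 of these 5 were also among the 5 lowest for Dnm1l.

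**Figure D4:**
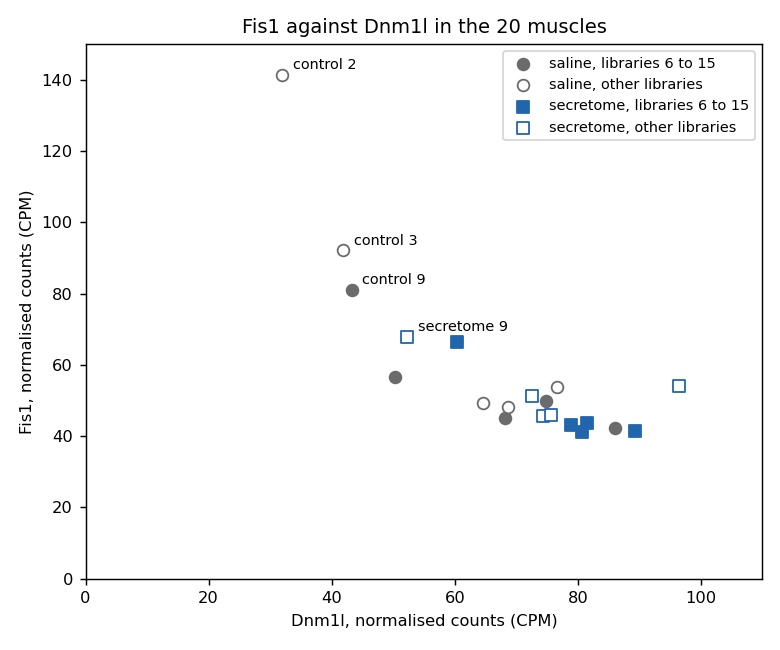
Fis1 against Dnm1l in normalised counts (CPM, axes from 0) for the 20 muscles, with control muscles as grey circles and secretome muscles as blue squares, filled for libraries 6 to 15 and open for the remaining ones. Control 2 lies at 32.0 CPM of Dnm1l and 141 CPM of Fis1, and the points fall towards 96.4 CPM of Dnm1l in secretome 6.

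Among the mitophagy genes, Pink1 ran against Fundc1, with an r of -0.75 and a rho of -0.70 (adjusted permutation p of 0.0012 and 0.00591, n = 20). It was -0.64 without the 2 muscles farthest from the median of Pink1, -0.61 within libraries 6 to 15, -0.84 in the remaining ones, -0.86 in control muscles and -0.84 in secretome muscles. With the trends removed the r was 0.14, so the sign turned. Mff and Fundc1 had an r of 0.69 and a rho of 0.66 (adjusted permutation p of 0.00332 and 0.00984), with 0.59 without the 2 farthest muscles, 0.73 and 0.79 in the library sets and 0.25 with the trends removed. In control muscles that r was 0.81 and in secretome muscles 0.19. Mfn2 ran against Bnip3l, with an r of -0.77 and a rho of -0.73 (adjusted permutation p of 0.00063 and 0.00345), -0.69 without the 2 farthest muscles, -0.77 and -0.78 in the library sets, -0.86 and -0.60 in control and secretome muscles and -0.68 with the trends removed.

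**Figure D5:**
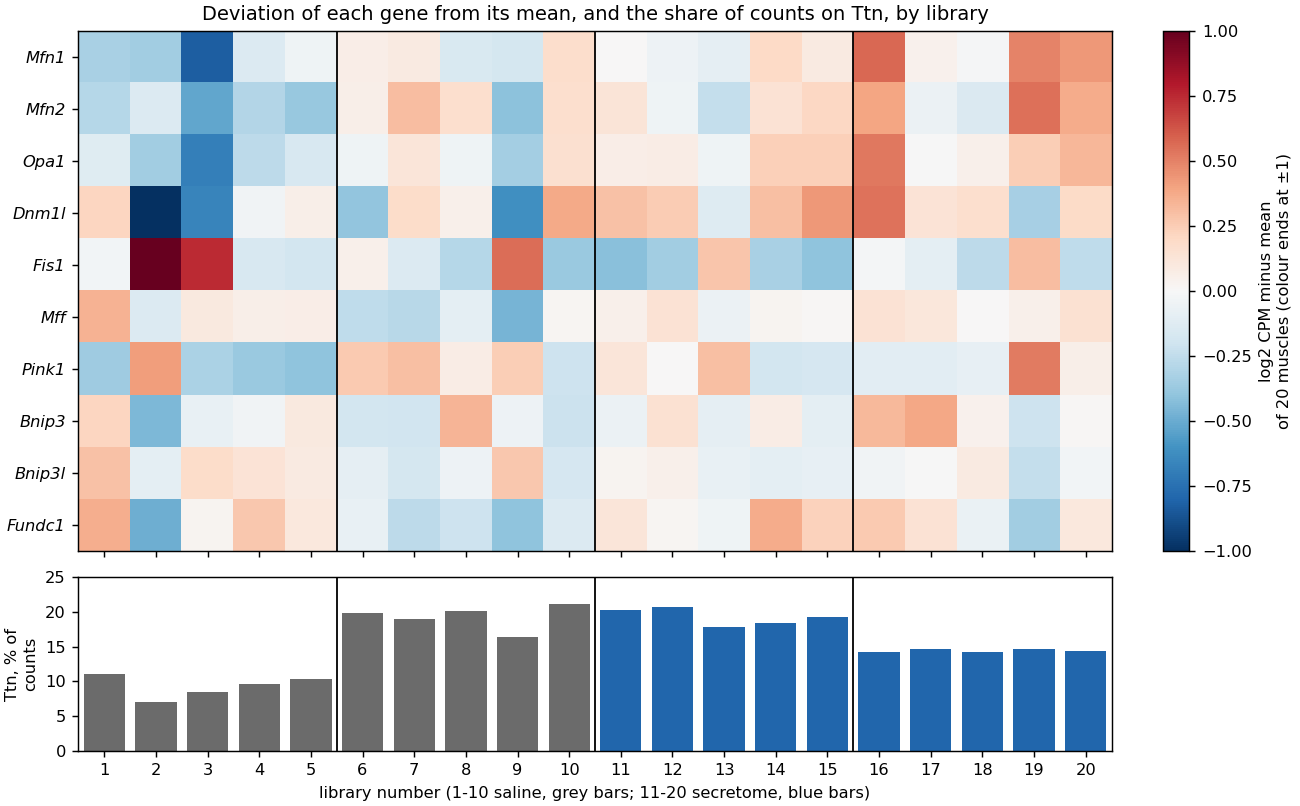
Top, log2 CPM of each gene minus its mean over the 20 muscles, by library number (red above, blue below, colour ends at ±1, with lines between the sets of 5 libraries). Bottom, the share of each library's counts on Ttn in percent, which runs from 7.02% to 11.03% in libraries 1 to 5, where Mfn1, Mfn2 and Opa1 are below their means.

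The genes most like each member over the 20 muscles, among 9343 genes with a mean of at least 5 CPM, were named by the highest Pearson r. For Mfn1 these were Dlat (r = 0.94), a subunit of the pyruvate dehydrogenase complex, and Ndufa9 (r = 0.94), a subunit of complex I. Within libraries 6 to 15 the r with Mfn1 was 0.88 for Dlat and 0.52 for Ndufa9. For Mfn2 Pdpr is given (r = 0.93, and 0.85 within libraries 6 to 15), a regulator of pyruvate dehydrogenase phosphatase. For Opa1 they were the mitochondrial magnesium channel gene Mrs2 and Fam210a (both r = 0.93). For Dnm1l Lypla1 is given (r = 0.97), and for Fis1 they were Ube2s and Cuta (both r = 0.97). For Pink1 they were the transcription factor gene Foxo4 (r = 0.95) and the kinase gene Stk11 (r = 0.93), which have GC contents of 55.2% and 59.5%. For Mff they were Capza2 and Ttc1 (both r = 0.86), for Bnip3 Rev3l (r = 0.83) and Ythdc1 (r = 0.81), for Bnip3l Ssu72 (r = 0.81) and Txndc17 (r = 0.80), and for Fundc1 Lcorl (r = 0.91) and Zfp719 (r = 0.87). Within libraries 6 to 15 the r with Bnip3 was lower, at 0.66 for Rev3l and 0.69 for Ythdc1. In the same order it was 0.92 and 0.92 for Mff, 0.90 and 0.86 for Bnip3l and 0.89 and 0.75 for Fundc1. These values share libraries and base composition, and each is the highest of many, so they are given as descriptions.

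Other genes of the same pathways were read from fixed lists, and none passed the false discovery rate in edgeR over all 20 muscles. Of 12 tested fusion partners, which include the proteases that cut Opa1, 0 had an unadjusted p under 0.05, and the nearest were the proteases Yme1l1 (0.26 log2 fold) and Oma1 (0.14). Of 12 fission partners, Mtfr1 was higher (0.19) and Inf2, a formin of the fission site, lower (-0.27) at that level. Of 15 genes of the Pink1 pathway, 2 were higher at an unadjusted p under 0.05, Rhot1 (0.18), a mitochondrial transport GTPase that the pathway degrades, and Optn (0.26), an autophagy receptor. Tomm7, which holds Pink1 at the outer membrane, was lower at that level (-0.29). Rhot1 passed with DESeq2 (log2 fold change 0.20, adjusted p = 0.0479). Of 17 tested genes of receptor mitophagy, Csnk2a1 (0.29) and Fundc2 (0.33) were higher and Gabarap (-0.24) and the receptor Fkbp8 (-0.29) lower at an unadjusted p under 0.05. These counts of 0, 2, 3 and 4 stand beside 15.7% of all genes.

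Inside libraries 6 to 15, where 9.95% of all genes had an unadjusted p under 0.05, Yme1l1 was higher (0.29) and the prohibitin gene Phb1 lower (-0.21) among the fusion partners, and Gdap1 was higher (0.52) among the fission partners. Rhot1 (0.27) and Optn (0.23) were higher in the Pink1 pathway. Of receptor mitophagy, Fundc2 (0.29) was higher and Map1lc3a (-0.35), Gabarapl1 (-0.25) and Bcl2l1 (-0.35) lower. In the remaining libraries, where 16.1% of all genes had such a p, the 4 lists had 2, 2, 1 and 4 genes higher.

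Of 13 hypoxia response genes and 11 genes of a FoxO list, 0 had an unadjusted p under 0.05, against 15.7% of all genes. The FoxO list held the factor genes Foxo1, Foxo3 and Foxo4 beside genes listed as their targets. The nearest hypoxia genes were Egln1 (0.23) and Vegfa (-0.27), and the nearest FoxO targets Fbxo21 (-0.18) and Cited2 (-0.16). The genes of the FoxO list differed in sign between the library sets. Within libraries 6 to 15, 0 of 11 were positive, and in the remaining ones 9 of 11. Their median log2 fold changes there were -0.26 and 0.31, beside -0.01 and -0.05 over all genes tested. At an unadjusted p under 0.05, 1 gene of the FoxO list, Fbxo31, was lower within libraries 6 to 15 (-0.26). In the remaining ones 5 genes of the list were higher, with Pdk4 (0.77) and the factor gene Foxo1 (0.60) the largest. Fbxo31 (0.38) was among these 5, so its sign turned between the sets. The hypoxia genes numbered 0 within libraries 6 to 15 and 3 in the remaining ones, all higher (Egln1 at 0.53, Pdk1 at 0.35 and Ddit4 at 1.56). Of all genes, 9.95% had such a p within libraries 6 to 15 and 16.1% in the remaining ones. Of 9 tested genes of mitochondrial content, 4 were higher at an unadjusted p under 0.05, namely the outer membrane channel genes Vdac2 (0.23), Vdac3 (0.28) and Vdac1 (0.22) and the chaperone gene Hspd1 (0.27). Within libraries 6 to 15 none of these 9 had an unadjusted p under 0.05 and in the remaining libraries 6 had, beside 15.7%, 9.95% and 16.1% of all genes over all muscles, within libraries 6 to 15 and in the remaining ones. Over all muscles the medians of the lists, from -0.04 for receptor mitophagy to 0.22 for mitochondrial content, stand beside -0.03 over all genes tested.

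Markers of other cell types also varied. All 5 macrophage markers had negative log2 fold changes, and Csf1r (-0.76) and Adgre1 (-0.82) had an unadjusted p under 0.05, which 15.7% of all genes had. Within libraries 6 to 15 all 5 were negative again, at a median of -0.82. Csf1r (-0.82), Adgre1 (-0.95) and Cd163 (-0.90) had such a p there, which 9.95% of all genes had. No macrophage marker passed the false discovery rate, with smallest edgeR adjusted p-values of 0.151 over all muscles and 0.404 within libraries 6 to 15. No tested marker of the other cell types passed it either. All 5 fibroblast and all 5 adipocyte markers were negative too, at medians of -0.36 and -0.56. In libraries 6 to 15, 2 of 5 fibroblast markers were positive, Lum (0.60, unadjusted p = 0.00905 in edgeR) and Dcn (0.33), and 0 of 5 adipocyte markers, where Cidec (-0.75) had an unadjusted p under 0.05. Over all muscles 2 of 5 endothelial and 2 of 5 erythroid markers were positive. Of the neutrophil markers 4 of 5 passed the filter. The summed level of all 5 was 1.36 to 96.1 CPM in control and 1.46 to 106 CPM in secretome muscles, highest in control 3 and secretome 8. Erythroid genes were highest in control 3 as well, at 1375 CPM. The part of these cells in the values of the 10 genes was not tested. GENCODE annotates opposite-strand genes over exons of Bnip3, Dnm1l and Mff and microRNAs within Pink1. The strand setting of the counting is not given in the sources used here, so reads shared with these cannot be told apart.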

How the data were processed

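Quadriceps RNA of 20 samples was sequenced from directional total RNA libraries. The paper's number of mice for this experiment does not state whether it is per group. The authors deposited raw counts per Ensembl gene without normalization. The submitters' processing notes name cutadapt 1.16, STAR 2.7.9a, featureCounts 1.6.3, DESeq2 1.34.0 and the build GRCm39, while the counting options and annotation release are not given in the sources used here. Treatments and muscle numbers came from the labels.

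Symbols, merged exon lengths and GC content came from GENCODE M21, matched by Ensembl identifier (52083 identifiers with a symbol, at least 98.6% of each library's counts). Counts were filtered with filterByExpr, scaled by TMM and tested with the robust quasi-likelihood F-test of edgeR 4.0.16 (R 4.3.3), with a single treatment term and p-values adjusted over all genes by Benjamini-Hochberg at 5%. The standard error was obtained by dividing the absolute log2 fold change by √F, and 95% intervals assumed a normal distribution. CPM were counts scaled to the TMM library size, with a prior count of 2 for log2 values. Sets of 5 muscles were also compared by two-sided exact permutation tests, and correlations used 100000 resamples, whose smallest p is 1e-05. The labels do not state how the muscles were processed apart, so p-values measure the spread between these samples, which may be technical. The fits were tested on simulated data.

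The library sets were defined by library number after the share of Ttn had been seen. The members and lists were chosen with earlier results of these data known. Genes named were all 10 members, the 2 genes of smallest p in each list, the 2 genes most correlated with each member (some of which are not reported here), and Ttn, and further list genes with an unadjusted p under 0.05, Myh4 and markers of other cell types were added after their values were seen. Alternatives were DESeq2 1.42.0, RLE scaling, no filter, voom of limma 3.58.1 with quality weights, the replicate number as a block, the library ranges as a term, removal of GC and length trends, a 10% false discovery rate and each muscle left out in turn.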

Additional observations from a re-analysis of the deposited data

Results flagged for a closer look

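In the control group, the lowest log2 CPM of Mfn1, in control 3 (6.24), stood apart from the other 9 muscles by Dixon's gap test at the 95% level. The test was applied to 20 groups of 10 values, of which chance gives about 1, and 1 was found. Without control 3 the log2 fold change of Mfn1 over all muscles was 0.27. Control 3 also had the lowest Mfn2 and Opa1 and the highest summed neutrophil and erythroid markers of the control group, and their part in its values was not tested.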

How the results depend on the processing

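None of the 10 genes passed the 5% false discovery rate over all 20 muscles or within libraries 6 to 15 under any alternative run, and 772 of 810 alternative values kept their direction and side of the threshold, while 35 changed sign. DESeq2 raised all genes called from 1 to 216, called 1 pathway gene (Rhot1) and, in libraries 16 to 20 against 1 to 5, 3 members, where it called 520 genes (3.77%). Over all muscles, genes called numbered 0 with the library ranges as a term, 0 with the replicate block, 3 with voom, 3 at a 10% false discovery rate and 0 to 15 with each muscle left out. Members with an unadjusted p under 0.05 numbered 5, and 2 with the ranges as a term, 3 with voom and 2 to 5 with each muscle left out. With the replicate number as a block they numbered 3. The labels do not state that the numbers pair mice, and the deviations of same-numbered muscles correlated at -0.24 to 0.22, over 0.1 in 2 of 10. Same-numbered muscles lie in different library sets, so these correlations cannot decide whether the numbers are a pairing. For libraries 6 to 15 the members with an unadjusted p under 0.05 numbered 2, and 0 with GC and length trends removed and 1 to 3 with a muscle left out. In libraries 16 to 20 against 1 to 5 they numbered 3, and 5 with trends removed and 3 to 4 with a muscle left out. For the difference between library sets they numbered 3, and 2 to 6 with a muscle left out, 6 being without control 2. The level order kept 6 of 10 ranks with the longest transcript.

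Some signs turned. With the ranges as a term, Mfn2 was -0.032 and Pink1 -0.12. With trends removed, Mff was -0.0034 over all muscles. For libraries 6 to 15, Mfn1 was then -0.00082, Mfn2 0.10, Mff -0.0042, Pink1 0.065, Bnip3 -0.10 and Bnip3l -0.14, and in libraries 16 to 20 against 1 to 5 Mff was -0.0060 and Fundc1 0.040, where voom gave -0.025 for Mff. Without trends the correlation of Fundc1 was 0.16 with Fis1 and 0.14 with Pink1. That of Mff turned to 0.78 with Fis1 and -0.50 with Dnm1l, from -0.33 and 0.48 as measured. With each muscle left out, Pink1 ranged from -0.0069 (without secretome 9) to 0.11 over all muscles. Within libraries 6 to 15, Mfn1 ranged from -0.0080 to 0.087, Mfn2 from -0.12 to 0.041 and Bnip3l from -0.024 to 0.10. In libraries 16 to 20 against 1 to 5, Mff ranged from -0.037 to 0.078 and Fundc1 from -0.15 to 0.036. For the difference between library sets, Dnm1l ranged from -0.24 to 0.037 and Fis1 from -0.021 to 0.50. The cause was not tested. The alternatives for libraries 16 to 20 against 1 to 5, for the difference between sets and for the correlations were chosen after seeing the data. Library number and treatment cannot be told apart outside libraries 6 to 15, and 5 against 5 muscles leave wide intervals.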
